A study of Homo sapiens with 6 samples.

Results

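The genes described here encode heat shock proteins and DNAJ co-chaperones, and they were followed in SKM-1 cells, an established human acute myeloid leukaemia line. Members were chosen by name: protein-coding genes of the HSP90, HSP70, HSP110, chaperonin, small heat shock protein, DNAJA, DNAJB and DNAJC families, without HSPA5, DNAJB9, DNAJB11, DNAJC3 and DNAJC10, which act in the endoplasmic reticulum. The names of 104 genes fit, of which 35 were not protein coding and 5 were the excluded ones. That left 64 members of 26704 genes in all, or of 15778 protein-coding genes. They comprise 2 HSP90, 12 HSP70, 3 HSP110, 3 chaperonin, 5 small heat shock protein, 4 DNAJA, 9 DNAJB and 26 DNAJC genes. HSPA14 is held by 2 gene IDs at one locus, so there are 63 different symbols. The working name for the set was cytosolic chaperones, but 8 members are known as mitochondrial proteins and 5 as proteins of the endoplasmic reticulum, so the set is described here by its families.

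The cells had been given BOR (2 libraries), VEM (1 library) or VEM and BOR together (1 library), or no treatment (2 libraries). VEM stands for vemurafenib, which inhibits RAF kinases, and the series title asks whether it induces senescence. BOR is a compound whose name the labels do not spell out. Every library, untreated ones included, came from the SKM-1 line, and neither doses and times nor the origin of the replicates are given in the sources used here. The p-values thus rest on library-to-library spread alone, and that spread may be of technical origin.

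Heat shock proteins hold other proteins in a state from which they can fold. HSP70 proteins bind short exposed stretches of a client while ATP is hydrolysed, DNAJ proteins bring clients to HSP70 and stimulate that hydrolysis through their J domain, and HSP110 proteins release the nucleotide again. HSP90 acts later, on clients such as kinases and steroid receptors, and RAF kinases are among its known clients. When unfolded protein accumulates, the transcription factor HSF1 forms trimers and binds heat shock elements, inverted repeats of the triplet GAA, in the promoters of the inducible members. In leukaemia cells, as in other fast-growing cells, HSP90 and HSP70 proteins are abundant without heat shock.

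The promoters were searched for exact matches to such an element, with no mismatch allowed. RefSeq windows of 250 bases before to 50 bases after a gene start (build GRCh38.p14) were found by symbol for 56 members, 75 windows in all, and both strands were searched. With 3 alternating units, GAANNTTCNNGAA or its reverse complement TTCNNGAANNTTC, 7 members had a match in a window, which is 12.5% of the 56 and compares with 0.608% of 27305 genes. These were HSP90AA1, HSP90AB1, HSPA8, HSPA6, HSPD1, DNAJA1 and DNAJB6. With 2 units, GAANNTTC or TTCNNGAA, 20 members (35.7%) had a match, against 16.2% of all genes; every match of 3 units holds 2 overlapping matches of 2 units. Below are 6 windows, chosen because the values turn on these genes: 4 with a 3-unit match, 1 with a 2-unit match and HSPA13 with none. Capitals mark the matches, and each sequence is given 5′ to 3′ on the gene's strand. HSP90AA1 is at chr14:102086995-102087294 (minus strand), with a 3-unit match that begins 88 bases before the gene start. HSP90AB1 is at chr6:44247693-44247992 (plus strand), with 3-unit matches 165 and 112 bases before it. HSPA8 is at chr11:123062087-123062386 (minus strand), with matches 230 and 55 bases before it. HSPA6 is at chr1:161524290-161524589 (plus strand), with a 3-unit match 74 bases before it. HSPA1A is at chr6:31815293-31815592 (plus strand), with a 2-unit match 106 bases before it, and HSPA13 is at chr21:14383097-14383396 (minus strand). A match describes these letters and shows no binding. An element with a mismatch was not counted, so a gene without a match may still carry one.
HSP90AA1: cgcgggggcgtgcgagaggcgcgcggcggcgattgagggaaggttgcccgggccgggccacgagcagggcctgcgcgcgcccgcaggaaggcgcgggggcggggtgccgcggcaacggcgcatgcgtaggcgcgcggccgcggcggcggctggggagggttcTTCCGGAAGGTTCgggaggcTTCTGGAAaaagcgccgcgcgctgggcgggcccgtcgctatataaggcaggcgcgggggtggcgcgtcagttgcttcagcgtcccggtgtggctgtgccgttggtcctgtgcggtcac
HSP90AB1: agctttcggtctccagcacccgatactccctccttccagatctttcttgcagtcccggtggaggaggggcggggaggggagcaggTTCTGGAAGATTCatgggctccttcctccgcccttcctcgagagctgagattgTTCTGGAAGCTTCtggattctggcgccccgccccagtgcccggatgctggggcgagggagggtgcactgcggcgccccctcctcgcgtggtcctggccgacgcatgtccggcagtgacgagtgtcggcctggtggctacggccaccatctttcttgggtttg
HSPA8: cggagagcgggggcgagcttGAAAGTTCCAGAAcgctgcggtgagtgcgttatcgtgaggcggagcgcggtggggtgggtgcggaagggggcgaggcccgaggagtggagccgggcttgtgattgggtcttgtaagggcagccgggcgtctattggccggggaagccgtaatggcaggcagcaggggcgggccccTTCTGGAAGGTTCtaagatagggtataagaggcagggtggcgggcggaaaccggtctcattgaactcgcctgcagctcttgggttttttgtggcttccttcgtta
HSPA6: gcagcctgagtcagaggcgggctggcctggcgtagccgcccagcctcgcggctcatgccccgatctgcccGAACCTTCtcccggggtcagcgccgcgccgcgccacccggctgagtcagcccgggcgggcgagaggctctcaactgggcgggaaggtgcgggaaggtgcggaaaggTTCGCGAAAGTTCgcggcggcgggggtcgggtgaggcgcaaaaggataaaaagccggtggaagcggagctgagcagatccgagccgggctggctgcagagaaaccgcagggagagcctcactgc
HSPA1A: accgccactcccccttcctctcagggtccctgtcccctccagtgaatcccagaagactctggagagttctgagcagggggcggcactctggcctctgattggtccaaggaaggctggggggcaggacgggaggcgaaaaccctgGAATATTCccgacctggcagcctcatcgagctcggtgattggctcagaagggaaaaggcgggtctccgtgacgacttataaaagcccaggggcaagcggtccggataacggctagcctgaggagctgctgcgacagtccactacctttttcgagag
HSPA13: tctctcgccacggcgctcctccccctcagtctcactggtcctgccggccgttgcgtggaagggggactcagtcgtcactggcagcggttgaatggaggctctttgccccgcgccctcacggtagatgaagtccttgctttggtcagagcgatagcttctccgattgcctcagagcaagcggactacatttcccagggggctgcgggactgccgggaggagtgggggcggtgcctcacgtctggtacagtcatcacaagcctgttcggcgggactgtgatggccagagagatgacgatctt

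The libraries held 17252404 to 18507606 reads assigned to genes, with 0.915% to 1.50% of them on the members. Values below are normalised read counts, the reads divided by 1 factor per library. BOR 2 stood apart from the other 5 libraries: over 15462 genes its log2 values differed from the untreated mean with an SD of 1.46, against 0.38 for BOR 1, 0.50 for VEM and 0.53 for VEM+BOR. The replicates differed beyond counting error in both pairs, where chi-square over its degrees of freedom was 293 for the BOR pair and 45.4 for the untreated pair. Results on BOR are therefore given for each library. Of 6 myeloid markers all were found, with a summed level of 18461 to 53500 per library, while 5 of 15 markers of other cell types were found in all tables, with a summed level of 138 to 336. The myeloid markers did not move together. MPO had 41948 in BOR 2, 6551 in VEM and 4787 in VEM+BOR, against 18696 and 15445 in untreated 1 and 2. PTPRC had 269 in BOR 2, against 3360 and 3101 in untreated cells. In these bulk samples fewer cells of one kind and less RNA per cell cannot be told apart.

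Per kilobase of gene length, the constitutive cytosolic pair led the set in untreated cells. HSP90AB1, the constitutive HSP90, had the highest level, with a mean of 21802 normalised reads per kilobase. HSPA8, the constitutive HSP70, followed with 8368, and HSPB1, the small heat shock protein HSP27, with 6003. The mitochondrial chaperonin HSPD1 (4612) and the inducible HSP90AA1 (4276) came next, and these means lay closer together than the values of HSPD1 in the 2 untreated libraries (3541 and 5684). DNAJA1, a DNAJ partner of HSPA8, was the highest of the DNAJ genes with 2042 per kilobase. The stress-inducible HSPA1A and HSPA1B had 620 and 272 per kilobase, and HSPA6, which is strictly inducible in most human cells, had 18.3. At the other end 7 members had a mean over the libraries under 10 normalised reads: HSPB6, HSPB7, HSPB9, DNAJB7, DNAJC5B, DNAJC12 and the readthrough gene HSPE1-MOB4. These were not tested, nor was DNAJB13 in the tables of VEM and VEM+BOR.

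The untreated libraries differed from each other in these genes. On the log2 scale, untreated 2 lay above untreated 1 by a median of 0.32 over the 57 members with a mean of at least 10, against a median of 0.02 over protein-coding genes. HSPA8 differed by 0.82, HSPD1 by 0.68, HSPA9 by 0.69 and HSP90AB1 by 0.54, while DNAJB1 differed by −0.02 and HSPA6 by 0.05. Of the 7 members with a 3-unit element all 7 were higher in untreated 2, with a median of 0.54. Of those with a 2-unit match only, 2 were higher and 9 lower, with a median of −0.19. Of those with no match, 19 were higher and 13 lower, with a median of 0.32. Some members went the other way, among them DNAJB5 with −1.04 and HSPA1L with −0.87. A change seen in 1 treated library is read below against this gap, which for many members is as wide as the change itself.

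**Figure D1:**
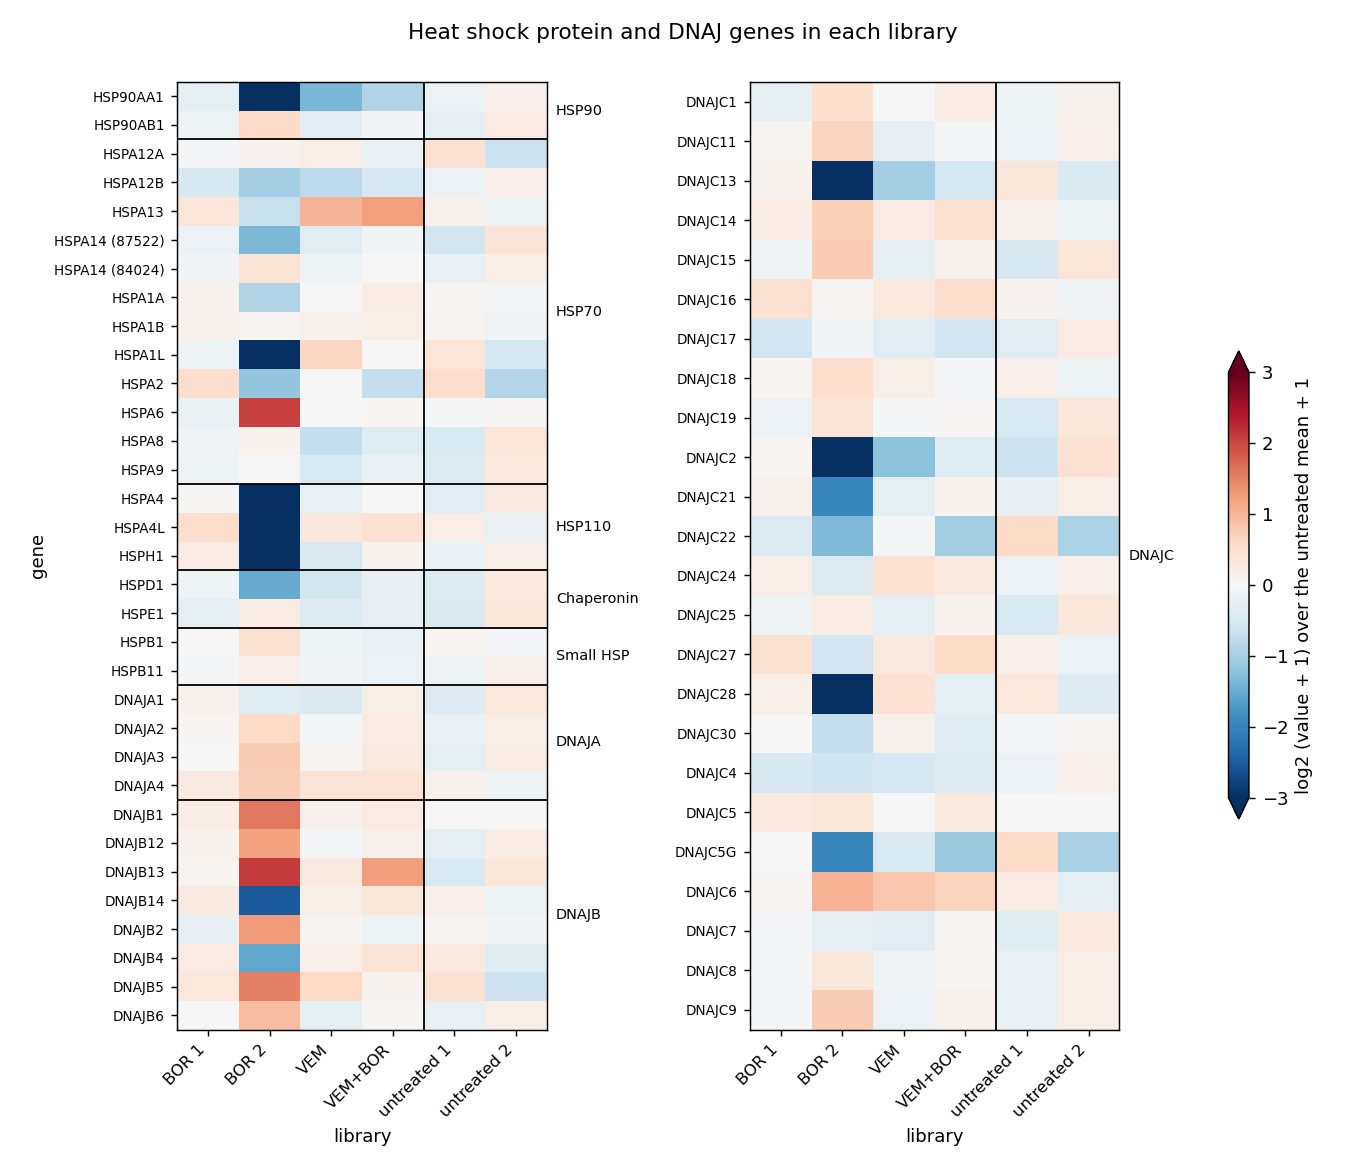
Each row is a gene and each column a library. Colour gives log2 of the normalised read count + 1 over the untreated mean + 1, and values beyond 3 in size take the end colours. The 57 genes with a mean of at least 10 are grouped by family, and the 2 HSPA14 IDs carry the last digits of their ID. The column of BOR 2 holds the strongest colours in both directions, with all 3 HSP110 genes at the low end, while BOR 1 stays pale.

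In VEM cells, HSP90AA1 had the lowest log2 change of the set and HSPA13 the highest, and no member passed the test across all genes. HSP90AA1, at chr14:102080738-102139699 (GRCh38, minus strand), encodes the inducible HSP90 alpha. It had 8623 normalised reads in VEM, against 19759 and 25118 in untreated 1 and 2. The VEM value was far below both untreated values, by more than the gap between them, and the untreated mean was 2.60 times as high. Its log2 change was −1.38 ± 0.52 (SE; limma, unadjusted p = 0.016, adjusted p = 1; VEM n = 1, untreated n = 2). Scaled to library totals it passed, with a log2 change of −1.31 and an adjusted p of 0.0243; the adjusted p ran between 0.0243 and 1 over the alternatives, and 40 of 15702 genes (0.255%) passed under that scaling. In the authors' deposited table its log2 fold change was −1.39, with a p-value of 0.000271 and an adjusted p of 0.164. HSP90AA1 shares exon bases with WDR20 on the opposite strand, and the protocol names no strand marking.

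The other HSP90 gene did not follow to that extent. HSP90AB1 had 51774 normalised reads in VEM, against 52890 and 77053 in untreated 1 and 2. The VEM value lay just under untreated 1, and the log2 change was −0.31 ± 0.76 (SE; limma, adjusted p = 1). The ratio of HSP90AA1 to HSP90AB1 per kilobase, which no scaling between libraries touches, was 0.0946 in VEM, against 0.212 and 0.185 in untreated 1 and 2.

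HSPA13 encodes a divergent HSP70 of the microsomes, whose protein lacks the substrate-binding part. It had 1798 normalised reads in VEM, against 968 and 792 in untreated 1 and 2. Both untreated values were far below VEM, and the log2 change was 1.03 ± 0.37 (SE; limma, unadjusted p = 0.011, adjusted p = 1). HSPA13 had the highest change of the 56 members tested. Its promoter window above holds no exact match of either form. Among members with a mean of at least 50, DNAJC6, DNAJB5, HSPA1L and DNAJC24 came next. Their log2 changes were 0.82 ± 0.50, 0.68 ± 0.47, 0.67 ± 0.54 and 0.43 ± 0.42 (SE). Each lay above both untreated libraries in VEM, and none passed the test.

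DNAJC2 and DNAJC13 were the other members with an unadjusted p under 0.05 in VEM. DNAJC2, the J protein that sits on ribosomes with HSPA14, had 560 normalised reads in VEM, against 858 and 1786 in untreated 1 and 2. The untreated values differed by more than VEM did from the nearer one, and the log2 change was −1.15 ± 0.42 (SE; limma, unadjusted p = 0.014), with −1.67 without untreated 1 and −0.62 without untreated 2. Its exons overlap PMPCB on the opposite strand. DNAJC13, a J protein of endosomes, had 589 in VEM, against 1508 and 879 in untreated 1 and 2. VEM lay below both, and the log2 change was −0.97 ± 0.40 (SE; limma, unadjusted p = 0.024), with −0.58 without untreated 1 and −1.35 without untreated 2. Both had an adjusted p of 1. In the authors' deposited table these 4 members had a p-value under 0.05 in VEM and none had an adjusted p under 0.05.

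Across the set, the changes in VEM spread on both sides of 0. Of the 56 members tested, 0 passed at an adjusted p of 0.05, where 0.0446% of 15689 genes did, and 4 had an unadjusted p under 0.05, where 2.54% of all genes did. edgeR and DESeq2 on reads recovered from the values called 0 members, against 0.261% and 0.102% of all genes. VEM lay above both untreated libraries for 16 members and below both for 16, or 28.6% each, close to the 30.3% and 27.6% of all genes. The median log2 change was −0.02, against 0.00 over all genes. The shares above and below both untreated libraries are near the background. The 4 members with an unadjusted p under 0.05 are 7.14% of the 56, a higher share than the 2.54% of all genes.

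The 5 members with the highest level per kilobase in untreated cells, HSP90AB1, HSPA8, HSPB1, HSPD1 and HSP90AA1, all lay below both untreated libraries in VEM. Of all genes 27.6% did, and of the 56 members 16 (28.6%) did. The ranking used the same untreated values as the comparison, and HSP90AB1 was only just below untreated 1. HSPA8 had 24869 normalised reads, against 29348 and 51802 in untreated 1 and 2, and its log2 change was −0.66 ± 0.65 (SE; limma, adjusted p = 1). HSPD1 had 13365 in VEM, against 15032 and 24127 in untreated cells, and HSPA9, the mitochondrial HSP70, had 11422, against 12005 and 19378 in untreated cells. DNAJA1 had 4101, against 4251 and 6897 in untreated cells, and HSPH1, an HSP110 exchange factor, had 4338, against 5238 and 6717 in untreated cells. HSPA9, DNAJA1 and HSPH1 thus lay below both untreated libraries too. The 5 genes described here were nearer to untreated 1, and their changes of −0.41 to −0.66 were about the size of their standard errors. Without untreated 1 the change of HSPA8 was −1.06 and without untreated 2 it was −0.24.

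The inducible HSP70 genes lay close to the untreated pair in VEM. HSPA1A had 1553 normalised reads, against 1574 and 1506 in untreated 1 and 2, a log2 change of 0.01 ± 0.36 (SE). HSPA1B had 745, against 731 and 641 in untreated cells, a change of 0.11 ± 0.38, and HSPA6 had 43.3, against 42.6 and 44.1 in untreated cells, a change of −0.01 ± 0.68. DNAJB1, the inducible DNAJ partner of HSP70, had 2696, against 2494 and 2462 in untreated cells, a change of 0.11 ± 0.37. HSPA1A and HSPA1B share 63.2% of the 150-base windows of HSPA1A, so their counts are uncertain, and HSPA6 shares 15.2% with HSPA7. With 1 VEM library a smaller change than that of HSPA13, which did not pass either, was not detectable in these genes.

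**Figure D2:**
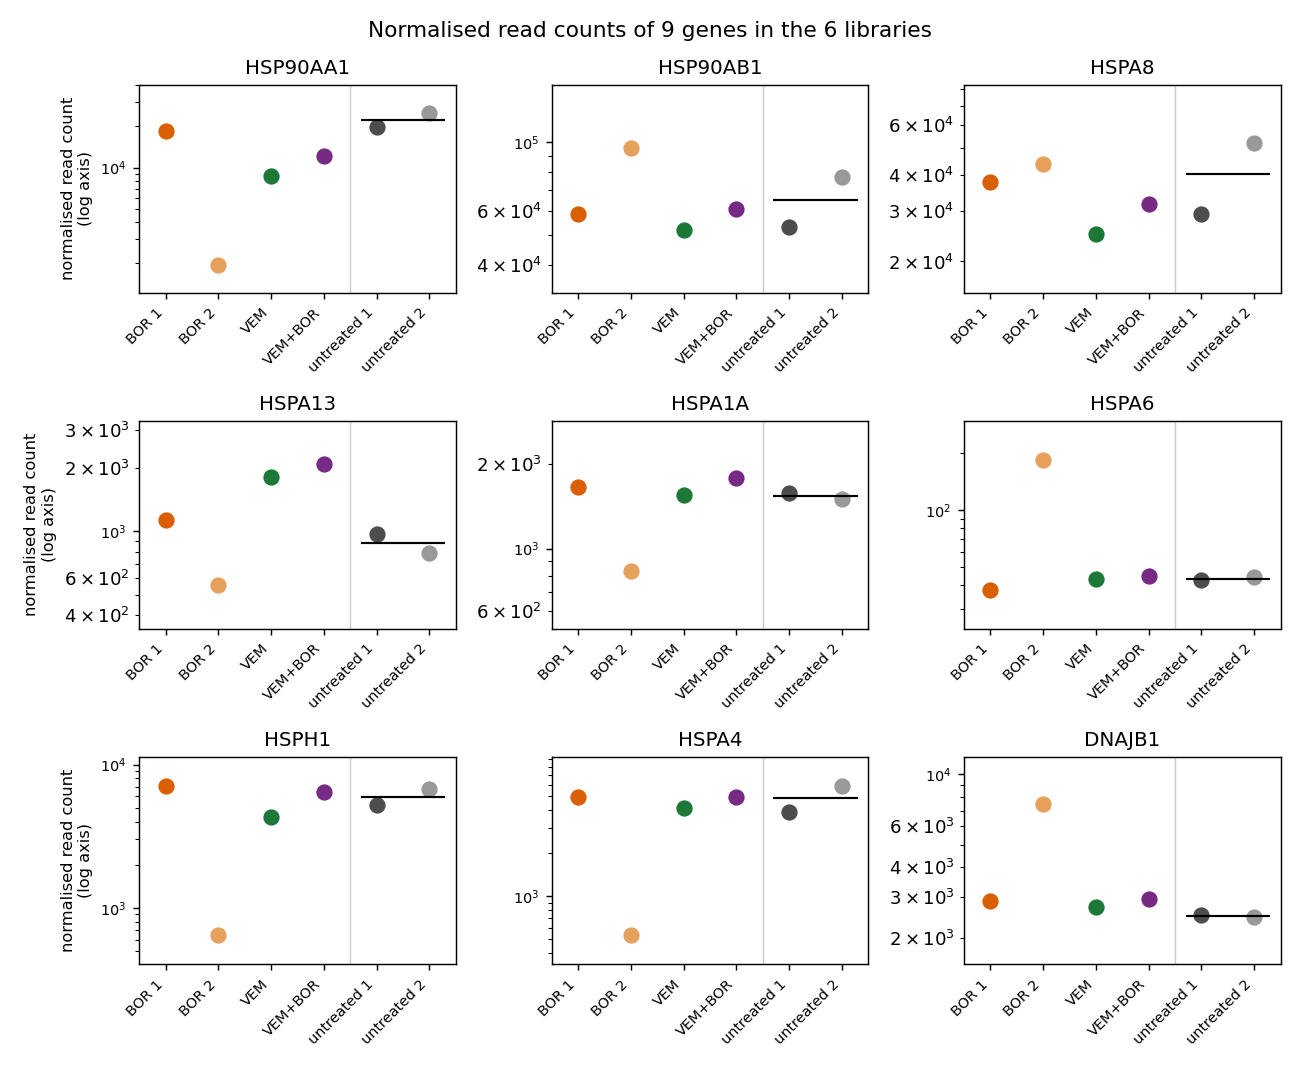
Normalised read counts of 9 genes on log axes, 1 point per library, with treated libraries left of the grey line and the untreated mean as a black bar. HSP90AA1 lies below both untreated points in VEM (8623) and VEM+BOR (12089), HSPA13 above them (1798 and 2079), and BOR 2 is far from BOR 1 for HSP90AA1, HSPH1, HSPA4, HSPA6 and DNAJB1.

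In VEM+BOR cells HSPA13 and HSP90AA1 stood at the ends among members with high counts, and no member passed the test. HSPA13 had 2079 normalised reads in VEM+BOR, against 968 and 792 in untreated 1 and 2. The value was more than 2-fold above both, and its log2 change of 1.23 ± 0.37 was the highest of the set (SE; limma, unadjusted p = 0.0030, adjusted p = 0.392; 0.105 to 1 over the alternatives). HSP90AA1 had 12089 in VEM+BOR, against 19759 and 25118 in untreated cells. It lay below both, with a log2 change of −0.90 ± 0.54 (SE; limma, unadjusted p = 0.11, adjusted p = 1). All 3 comparisons use the same untreated libraries, so a likeness between them is no independent result. In the authors' deposited table HSPA13 had a log2 fold change of 1.23 with a p-value of 0.00211 and an adjusted p of 0.274, and HSP90AA1 had −0.91 with a p-value of 0.0167.

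HSP90AB1 had 60909 normalised reads in VEM+BOR, against 52890 and 77053 in untreated 1 and 2, so it lay between them. The ratio of HSP90AA1 to HSP90AB1 per kilobase was 0.113 in VEM+BOR, against 0.212 and 0.185 in untreated 1 and 2. HSPA8, with 31797, and HSPD1, with 16379, also lay between their untreated values. DNAJA1 had 6273, against 4251 and 6897 in untreated cells, and HSPH1 had 6442, against 5238 and 6717 in untreated cells, again within the untreated range. DNAJC2 had 1030 and lay between its untreated values too, whereas DNAJC13 with 829 was just under the lower of them.

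Of the 56 members tested in VEM+BOR, 0 passed at an adjusted p of 0.05, where 0.192% of 15606 genes did. An unadjusted p under 0.05 was found for 1, HSPA13, where 3.01% of all genes had one. edgeR and DESeq2 called 0 members, against 0.545% and 0.41% of all genes. VEM+BOR lay above both untreated libraries for 18 members (32.1%) and below both for 11 (19.6%), against 30.1% and 27.9% of all genes. The median log2 change was 0.05, against 0.01 over all genes. Of the 4 DNAJA genes 3 lay above both untreated libraries, by log2 changes of 0.24 to 0.41, and DNAJA1 did not. DNAJC16 and DNAJC27 also lay above both, with log2 changes of 0.51 ± 0.44 and 0.58 ± 0.57, and DNAJC17 lay below both with −0.56 ± 0.42 (SE; limma, adjusted p = 1 each). DNAJC14 lay above both too, with 0.45 ± 0.42, and HSPA12B and DNAJC4 lay below both, with −0.50 ± 0.66 and −0.40 ± 0.45 (SE). Genes with low counts gave wide changes: DNAJC6, the clathrin-uncoating auxilin, had 198 normalised reads, against 146 and 103 in untreated 1 and 2, and DNAJC22 had 20.2, against 63.0 and 21.6.

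In BOR cells the 2 libraries gave different pictures, and no member passed the test. BOR 1 was close to untreated cells: the log2 ratios of the 57 members to the untreated mean had an SD of 0.24, against 0.38 over all genes, and their median was 0.03. In BOR 2 the SD was 1.65 over the members, against 1.47 over all genes, and the median was 0.09. Of the 57 members tested, 0 passed with limma, edgeR or DESeq2, against 0%, 0% and 0.182% of 15382 genes. An unadjusted p under 0.05 was found for 0 members, where 0.247% of all genes had one. Both BOR libraries lay above both untreated libraries for 5 members and below for 3, or 8.77% and 5.26%, against 11.7% and 8.24% of all genes. The smallest adjusted p of a member was 0.968.

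The 3 HSP110 genes show the split most plainly. HSPH1 had 7102 normalised reads in BOR 1 and 645 for BOR 2, against 5238 and 6717 in untreated 1 and 2. HSPA4 had 4943 in BOR 1 and 534 for BOR 2, against 3837 and 5882 in untreated cells. HSPA4L had 1942 in BOR 1 and 119 for BOR 2, against 1527 and 1150 in untreated cells. BOR 1 was within or above the untreated range for each, whereas BOR 2 was lower than the untreated mean by 9.10 to 11.3 times. The limma changes were −1.45 to −1.54 with standard errors of 1.02 to 1.23. On the log2 scale BOR 1 and BOR 2 lay further apart than the mean change for each gene. Without BOR 2 the changes of HSPH1, HSPA4 and HSPA4L were 0.26, 0.06 and 0.55.

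HSP90AA1 divided the same way. It had 18378 normalised reads in BOR 1 and 1941 for BOR 2, against 19759 and 25118 in untreated 1 and 2. BOR 1 lay just under both untreated values and BOR 2 was 11.6 times below their mean, and the log2 change was −1.90 ± 1.03 (SE; limma, unadjusted p = 0.11, adjusted p = 0.968). Without BOR 2 it was −0.27. HSP90AB1 had 58434 in BOR 1 and 96238 for BOR 2, against 52890 and 77053 in untreated cells, so BOR 2 was the highest of all libraries for the constitutive gene. The ratio of HSP90AA1 to HSP90AB1 per kilobase was 0.179 in BOR 1 and 0.0115 for BOR 2, against 0.212 and 0.185 in untreated 1 and 2.

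Related genes came apart within BOR 2 in other families as well. HSPD1 and HSPE1, the mitochondrial HSP60 and HSP10, lie head to head at one promoter region on chromosome 2. HSPD1 had 17855 normalised reads in BOR 1 and 6847 for BOR 2, against 15032 and 24127 in untreated 1 and 2, whereas HSPE1 had 2153 in BOR 1 and 3089 for BOR 2, against 1976 and 3332 in untreated cells. Their ratio per kilobase was 3.86 in BOR 1 and 1.03 for BOR 2, against 3.54 and 3.37 in untreated cells, and their exons overlap on opposite strands. HSPA1A had 1653 in BOR 1 and 829 for BOR 2, against 1574 and 1506 in untreated cells. HSPA1B had 746 in BOR 1 and 727 for BOR 2, against 731 and 641 in untreated cells. The ratio of HSPA1A to HSPA1B per kilobase was 2.25 in BOR 1 and 1.16 for BOR 2, against 2.19 and 2.38 in untreated cells, with the shared sequence named above.

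HSPA6 and several DNAJB genes were among the members with the highest log2 ratios in BOR 2. HSPA6 had 38.0 normalised reads in BOR 1 and 184 for BOR 2, against 42.6 and 44.1 in untreated 1 and 2. DNAJB1 had 2871 in BOR 1 and 7439 for BOR 2, against 2494 and 2462 in untreated cells. For both, BOR 2 alone was far above the rest, by 4.24-fold and 3.0-fold over the untreated mean, and the limma changes were 0.94 ± 0.87 and 0.90 ± 0.57 (SE; adjusted p = 0.968 each). DNAJB5 had 331 in BOR 1 and 764 for BOR 2, against 358 and 174 in untreated cells, and DNAJB2 had 636 and 1839, against 797 and 713 in untreated cells. Without DNAJB13, 5 of 7 DNAJB genes were above both untreated libraries in BOR 2, with a family median log2 of 1.22, and DNAJB14 and DNAJB4 were below both. Over all genes BOR 2 was above both untreated libraries for 44.5% and below both for 41.1%, so most genes lay outside the untreated range in this library. DNAJB14 had 120 in BOR 2, against 754 and 612 in untreated cells, and DNAJB4 had 70.3, against 257 and 163 in untreated cells. In BOR 1 the median of the same 7 genes was 0.21. DNAJB13, with 25.7 in BOR 2 and 3.55 to 6.86 in BOR 1 and untreated cells, entered the test only through BOR 2 and is left out of these counts, and DNAJB7 was too low to be tested.

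The remaining HSP70 genes and small heat shock proteins were mixed in BOR. HSPA1L, a close relative of HSPA1A known from testis, had 104 normalised reads in BOR 1 and 2.70 for BOR 2, against 149 and 81.4 in untreated cells. This was the lowest log2 change of the set, −2.49 ± 1.51 (SE; limma, adjusted p = 0.968), and it rests on BOR 2, where the gene had 2 reads. HSPA2 had 68.5 in BOR 1 and 20.3 for BOR 2, against 69.2 and 25.5 in untreated cells, so the replicates of each pair differed by more than the pairs did. HSPA14, the ribosome-bound HSP70, is held by 2 overlapping IDs that share sequence: ENSG00000187522 had 137 in BOR 2 and ENSG00000284024 had 666, and their values are uncertain. HSPB1 had 9883 in BOR 1 and 13379 for BOR 2, against 10144 and 9476 in untreated cells, and HSPB11, a protein of cilia, had 507 and 575, against 466 and 573 in untreated cells.

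Of the DNAJA genes, which carry the full set of J-protein domains, 3 of 4 lay above both untreated libraries in BOR 2, where 44.5% of all genes did, and DNAJA1 did not. DNAJA2 had 1632 normalised reads in BOR 1 and 2355 for BOR 2, against 1361 and 1754 in untreated cells. DNAJA3, a mitochondrial J protein, had 2076 in BOR 1 and 3446 for BOR 2, against 1703 and 2384 in untreated cells. BOR 1 lay within the untreated range for both. DNAJB6, which binds aggregation-prone proteins, had 509 in BOR 1 and 984.2 for BOR 2, against 439 and 593 in untreated cells, and DNAJB12, of the endoplasmic reticulum membrane, had 673 and 1453, against 518 and 731 in untreated cells. DNAJC genes spread both ways in BOR 2, with 10 of 24 above and 10 below both untreated libraries, near the 44.5% and 41.1% of all genes. DNAJC2 had 1378 in BOR 1 and 135 for BOR 2, against 858 and 1786 in untreated cells, and DNAJC13 had 1293 and 114, against 1508 and 879 in untreated cells. BOR 1 lay within the untreated range for both DNAJC genes and BOR 2 was far below it. DNAJC28 had 32.4 in BOR 1 and was at 0 in BOR 2, against 35.5 and 21.6 in untreated cells. DNAJC6 had a log2 change of 0.59 ± 0.60 in BOR (SE), the highest of the DNAJC genes. BOR 1 lay between its untreated values and BOR 2 above them.

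Counted singly, BOR 2 was more than 2-fold above both untreated libraries for 5 of the 57 members and more than 2-fold below both for 13, or 8.77% and 22.8%. Over all genes these shares were 11.5% and 21.6%. DNAJB13, which entered the test only through BOR 2, is among the 5, so that count is raised by the filter. It is also included wherever 57 members are described, as in the medians, SDs and correlations. Tested without BOR 1, as 1 library against 2, BOR 2 passed for 16 members (11 lower and 5 higher), which is 28.1%, against 26.1% of 15371 genes. Both shares are near the background, so the scale of the changes in BOR 2 is not particular to chaperone genes. Without BOR 2, 0 members passed, against 0% of all genes, and 13 and 7 of 56 members lay above and below both untreated libraries, or 23.2% and 12.5%, against 30.4% and 20.2%.

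The change in BOR 2 moved with base composition. Over the 57 members, GC content of the longest protein-coding transcript and the log2 ratio of BOR 2 to the untreated mean had a Spearman rho of 0.41 and a Pearson r of 0.40, and over 12746 protein-coding genes rho was 0.51 and r 0.49. These are correlations across genes of 1 library, and genes are not independent replicates. Members under 40% GC (n = 8) had a median of −1.76 in BOR 2, against −1.73 for all genes of that range, and members of 50% to 55% GC (n = 10) had 0.60, against 0.56. HSPA4L, HSPH1 and HSPA4 had 38.1%, 39.95% and 42.5% GC, DNAJB14 33.4%, HSPA6 58.4% and DNAJB1 53.0%. HSP90AA1, at 45.2% with −3.53, lay well below the median of its range, 0.24 over all genes. In BOR 1 rho was −0.34 over the members and −0.38 over all genes, in VEM −0.06 and −0.05, and in VEM+BOR −0.25 and −0.24. The part of composition in these changes was not tested.

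**Figure D3:**
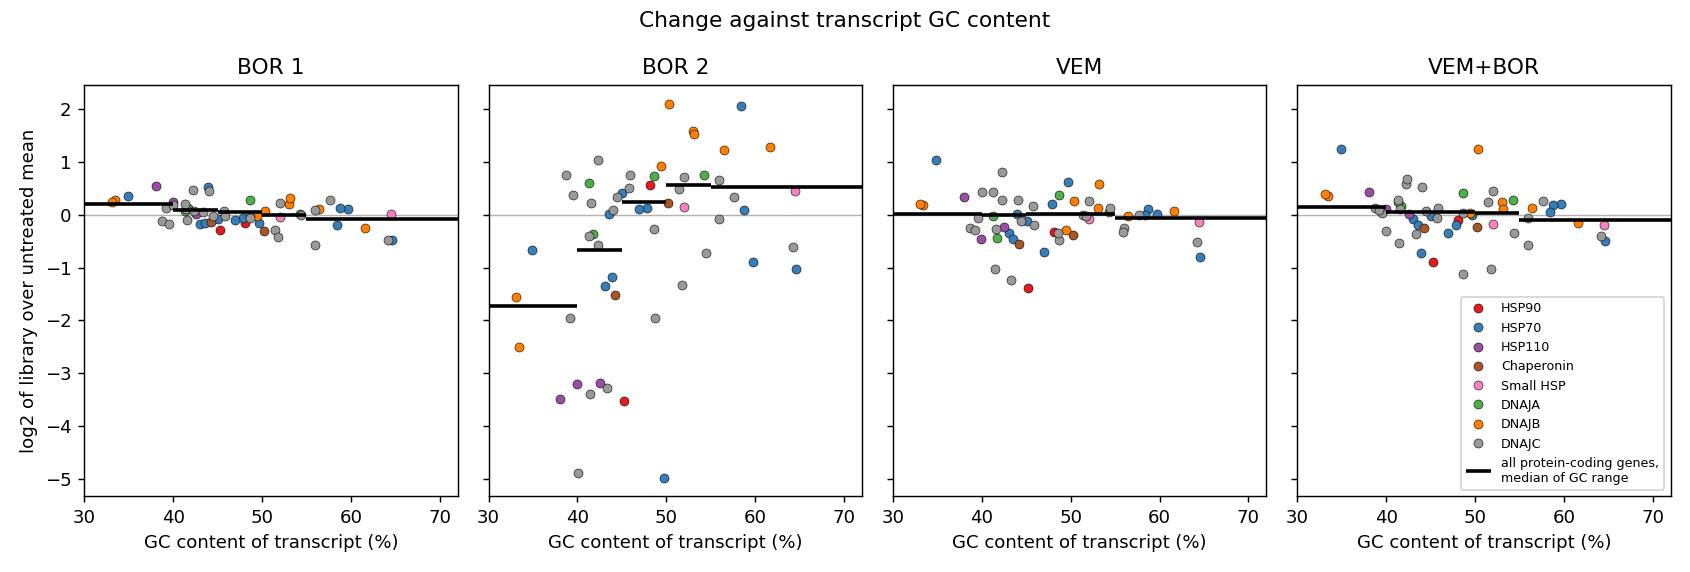
Each point is a member, coloured by family, with GC content of its transcript (%) on the horizontal axis and log2 of the library over the untreated mean on the vertical axis, 1 panel per treated library. Black bars are medians of all protein-coding genes within a GC range. In BOR 2 the bars climb with GC content up to the range of 50% to 55% and level off above it, and the HSP110 genes and HSP90AA1 lie under them, while in VEM they stay near 0.

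Members that share the 3-unit element were compared as a group, as a description. In VEM all 7 had a negative log2 change, with a median of −0.41, and 6 lay below both untreated libraries, where 27.6% of all genes did; HSPA6 was the exception. Members with a 2-unit match only had a median of 0.11 (11 tested) and those with no match −0.02 (31 tested). In VEM+BOR the 3-unit members had a median of −0.08, with 1 below both untreated libraries and 1 above. In BOR 1 their median was −0.13, and in BOR 2 it was 0.11 with a range of −3.53 to 2.06. The same 7 members were all lower in untreated 1 than in untreated 2, by a median of 0.54, and outside the members 42 tested genes with a 3-unit match had a median of −0.03 in VEM, with 18 positive and 24 negative. The level of 3-unit members in VEM was thus nearer to untreated 1 than the untreated libraries were to each other, apart from HSP90AA1. Whether VEM or the state of untreated 2 sets this difference cannot be told apart with 1 VEM library.

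**Figure D4:**
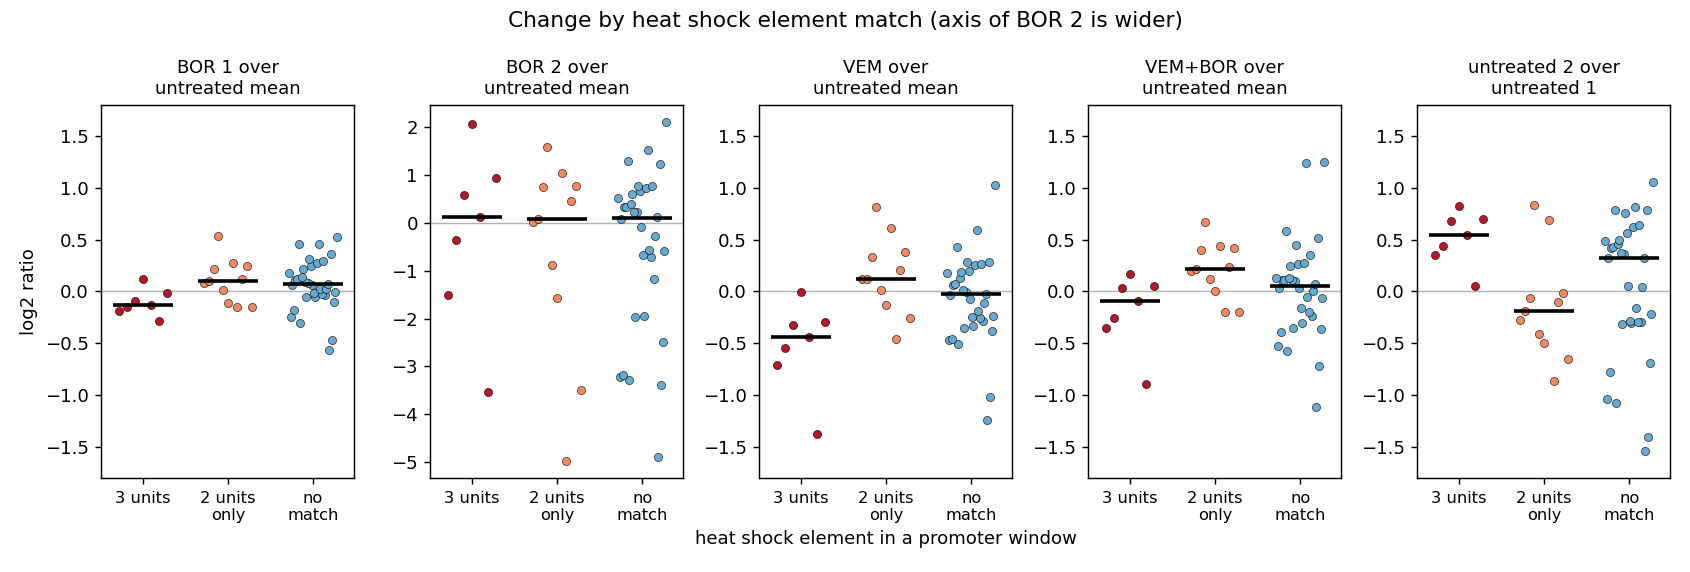
Members are grouped by the heat shock element found in their promoter windows, with 1 point per gene and the median as a black bar, and the vertical axis gives the log2 ratio named above each panel. The 3-unit genes lie at or below 0 in VEM and above 0 in untreated 2 over untreated 1 (median 0.54), and the axis of BOR 2 is wider than the others.

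Genes that work with the members gave 0 calls as well. The 6 lists were HSF factors and their regulators, HSP70 exchange factors and adaptors, HSP90 co-chaperones, the TRiC chaperonin with prefoldin, endoplasmic reticulum chaperones and other heat-inducible genes, and in each of the 3 comparisons 0 of their genes passed in either direction. HSF1, the heat shock factor itself, had 2072 normalised reads in BOR 1, 4015 in BOR 2, 2101 in VEM and 2424 in VEM+BOR, against 2000 and 2972 in untreated 1 and 2. BOR 2 was the highest and the other treated libraries lay within the untreated range. HSF2 had 112 in BOR 2 and 346 to 362 in the other treated libraries, against 340 and 341 in untreated cells. BAG3, an inducible HSP70 exchange factor, had 1730 in BOR 2 and 556 to 672 in the other treated libraries, against 592 and 581 in untreated cells. STIP1, which links HSP70 to HSP90, had 11590 in BOR 2 and 7152 to 7794 in the other treated libraries, against 6347 and 9931 in untreated cells. For all 4 genes BOR 2 was the library furthest from the untreated mean.

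Endoplasmic reticulum chaperones were the list with the highest median in BOR, a log2 change of 0.93 over 10 genes, of which 6 lay above both untreated libraries in both BOR libraries, where 11.7% of all genes did. The others were mixed: SDF2L1 had a change of 0.93, while DNAJC10, HSP90B1 and DNAJC3 had −1.36, −0.93 and −0.35, and no gene of the list passed the test. HSPA5, the HSP70 of that compartment, had 38568 normalised reads in BOR 1, 112674 in BOR 2, 20210 in VEM and 30434 in VEM+BOR, against 24133 and 34203 in untreated 1 and 2. Both BOR libraries were above the untreated pair, BOR 1 only slightly, VEM was below and VEM+BOR within it, and the log2 change in BOR was 1.201 ± 0.674 (SE; limma, unadjusted p = 0.12, adjusted p = 0.968). The list's median was −0.20 in VEM and 0.13 in VEM+BOR. In BOR the median of the 57 members was 0.07. HSP90 co-chaperones had medians of 0.15, −0.15 and 0.10 in BOR, VEM and VEM+BOR, and TRiC with prefoldin had 0.13, −0.20 and −0.04. HSP70 exchange factors had 0.33, −0.09 and 0.04, HSF factors 0.15, 0.03 and 0.08, and other heat-inducible genes 0.50, 0.06 and 0.11.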

How the data were processed

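RNA of 6 SKM-1 libraries was sequenced after poly-T selection as 150-base pairs, per the labels' protocols. The submitters' processing notes list, with no roles, edgeR 3.22.5, DESeq2 1.20.0, HISAT2 2.0.5, CASAVA and featureCounts 1.5.0-p3. These sources give no genome build; all 64 members' coordinates equal GENCODE 29 (GRCh38). The authors deposited 3 tables, each with a signal per gene and library, which proved to be whole reads divided by 1 factor per library and table (tolerance 0.001), and with a log2 fold change and p-values of their own comparison. Untreated values differ between tables through these factors, so levels printed here were rescaled by median of ratios over 23519 genes found in all tables. The log2 changes and tests of the main fits were computed within each table. For VEM and VEM+BOR, fits with 1 library left out used the rescaled levels of all remaining libraries, BOR included.

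The test was limma 3.58.1 (R 4.3.3) with a trend on log2(value + 1), two-sided, for genes with a mean of at least 10, with Benjamini-Hochberg adjustment over all genes and a threshold of 0.05. Fold changes on this scale understate those of low genes. VEM and VEM+BOR were 1 library each, assumed in the main fits to vary like the untreated pair. With an untreated library left out, the spread in their fits came from the BOR pair instead. Recovered reads were tested with edgeR 4.0.16 and DESeq2 1.42.0 as alternatives, and scripts were tested on simulated data. Other alternatives changed the pseudocount, the filter, the scaling and the libraries used. Reads per library numbered 17252404 to 18507606, without molecular identifiers. Of the members, 32 share exon bases with another gene, 24 of them on the opposite strand, and no strand marking is named. Members, gene lists and named genes were chosen with earlier results of these data known. Genes named with values are a fixed list of 26 main family members, in each comparison the 5 highest and 5 lowest members with a mean of at least 50, and HSF1, HSF2, BAG3, STIP1 and HSPA5; HSPB8 of that list is not analysed here. DNAJB13, DNAJB14, DNAJC22, DNAJC28, SDF2L1, DNAJC10, HSP90B1, DNAJC3, MPO and PTPRC were named after their values were seen.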

Additional observations from a re-analysis of the deposited data

How the results depend on the processing

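Of 1388 pairs of a result and an alternative setting, 1283 kept their direction and side of the threshold or their size, 73 log2 changes of named members took the opposite sign, 14 passed the threshold and 18 counts or medians moved. Of the 14, 13 were named members in BOR without BOR 1, where 16 members passed in all, and 1 was HSP90AA1 in VEM scaled to library totals. With all libraries and the settings of the report, no member had passed the test. Sign changes were most frequent without BOR 2 in BOR (17 of 31 named members), without untreated 2 in VEM (11 of 31) and VEM+BOR (8 of 34), and scaled to library totals in BOR (7 of 31). Scaled to library totals, the BOR comparison had a median of −0.26, with 2 members above and 5 below both untreated libraries, while the median of all genes shifted by −0.30, and the VEM comparison had 1 call, HSP90AA1. Leaving out 1 library at a time, the BOR comparison had 0 to 16 calls, the 16 without BOR 1, with 11 to 24 members above, 7 to 23 below and a median of −0.04 to 0.19. The 24 above came without BOR 1 or without untreated 2, or 42.1%, against 44.5% and 32.9% of all genes. The 23 below came without BOR 1, or 40.4%, against 41.1%. With 1 library left out, the VEM comparison had 16 to 34 above, 16 to 34 below and a median of −0.16 to 0.03. Its 34 above came without untreated 2 (59.6%, against 53% of all genes) and its 34 below without untreated 1 (59.6%, against 49.7%). The VEM+BOR comparison had 18 to 40 above, 11 to 32 below and a median of −0.08 to 0.21. Its 40 above came without untreated 2 (70.2%, against 53.9% of all genes) and its 32 below without untreated 1 (56.1%, against 49.2%). In VEM and VEM+BOR the upper counts thus came with 1 untreated library, which nearly every gene lies above or below. With an untreated library left out, the spread in these fits came from the BOR pair alone, whose libraries differed widely. Calls in these fits therefore cannot show how firm a result is. The cause of the moves in these counts and medians was not tested. No paired analysis was possible because the replicate numbers follow the order of accession and pair no libraries. Precision is limited by 1 or 2 libraries a group rather than by depth for members with high counts.

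The log2 changes that took the opposite sign are the following. Scaled to library totals, the BOR changes were −0.064 for HSPB1, −0.062 for HSP90AB1, −0.11 for HSPA14 (ENSG00000284024), −0.19 for HSPA1B, −0.23 for HSPB11, −0.29 for HSPE1 and −0.23 for HSPA8. With TMM scaling, the BOR changes were −0.011 for HSPB11, −0.067 for HSPE1 and −0.0086 for HSPA8. With edgeR, the BOR changes were −0.028 for HSPB11, −0.11 for HSPE1 and −0.073 for HSPA8. With DESeq2, the BOR changes were −0.033 for HSPE1 and −0.00067 for HSPA8. Scaled to library totals, the VEM changes were 0.035 for DNAJA2 and 0.052 for HSPA6. With edgeR, the VEM changes were −0.0050 for HSPA1A and −0.0058 for HSPA2. With edgeR, the VEM+BOR changes were −0.011 for DNAJB6 and −0.036 for HSPA4. With DESeq2, the VEM+BOR changes were −0.019 for HSPA4. In BOR the ranges with 1 library left out were DNAJA1 −0.43 to 0.28, DNAJB2 −0.24 to 1.29, DNAJB4 −1.52 to 0.29, DNAJC13 −3.33 to 0.17, DNAJC2 −3.18 to 0.16 and HSP90AB1 −0.12 to 0.59. For others in BOR they were HSPA13 −0.66 to 0.37, HSPA14 (ENSG00000284024) −0.063 to 0.43, HSPA1A −0.89 to 0.11, HSPA2 −1.02 to 0.69, HSPA4 −3.15 to 0.061 and HSPA4L −3.46 to 0.55. For others in BOR they were HSPA6 −0.18 to 2.06, HSPA8 −0.35 to 0.49, HSPA9 −0.37 to 0.33, HSPB11 −0.090 to 0.22, HSPE1 −0.37 to 0.40 and HSPH1 −3.20 to 0.26. In VEM the ranges with 1 library left out were DNAJA2 −0.20 to 0.16, DNAJA3 −0.16 to 0.32, DNAJB2 −0.0063 to 0.15, DNAJB4 −0.087 to 0.57, HSPA14 (ENSG00000187522) −0.74 to 0.21 and HSPA14 (ENSG00000284024) −0.32 to 0.10. For others in VEM they were HSPA1A −0.019 to 0.044, HSPA2 −0.52 to 0.89, HSPA4 −0.51 to 0.11, HSPA6 −0.026 to 0.023, HSPB11 −0.22 to 0.073 and HSPE1 −0.71 to 0.039. In VEM+BOR the ranges with 1 library left out were DNAJA1 −0.14 to 0.56, DNAJB5 −0.32 to 0.72, DNAJB6 −0.17 to 0.27, HSP90AB1 −0.34 to 0.20, HSPA14 (ENSG00000187522) −0.48 to 0.46 and HSPA14 (ENSG00000284024) −0.21 to 0.20. For others in VEM+BOR they were HSPA2 −1.25 to 0.15, HSPA4 −0.27 to 0.35, HSPA8 −0.70 to 0.12, HSPA9 −0.50 to 0.19, HSPD1 −0.56 to 0.12 and HSPE1 −0.57 to 0.19. For HSPH1 in VEM+BOR it was −0.060 to 0.30.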
